A study of Mus musculus with 15 samples.

Results

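ETn elements (early transposons) and their relative MusD are mouse endogenous retroviruses that move by copying their RNA back into DNA. Their transcripts and the piRNAs that match them were followed in testes and germ cells with and without TEX15. The members are the repeat names that contain ETn, in any case of letters, or start with RLTRETN. The rule uses names and no measured value, although it was set with earlier results of these data known. In the long RNA of gonocytes the rule found 5 of 359 repeat consensus sequences (ETNERV, ETnERV2, ETnERV3, MMETN and the LTR consensus RLTRETN_MM), and the same 5 were among 328 in the testes at P20. In the small RNA tables it found 5 of 858 names of transposable elements (TEs): ETnERV-int, ETnERV2-int, ETnERV3-int, MMETn-int and RLTRETN_Mm. No name spells MusD.

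All mice were of a mixed B6CBAF1/Crl; C57BL/6N background, and the Tex15- allele was made with CRISPR/Cas9 in a line from 1 founder. Long RNA was measured in germ cells sorted from E16.5 testes, with 3 libraries from Tex15+/- controls and 3 from Tex15-/- embryos. Both groups also carried 1 copy of Miwi2tdTom, whose tdTomato signal was used to sort the gonocytes. Small RNA of 15 to 40 nt was sequenced from 6 foetal testes at E16.5 per library, again with 3 Tex15+/- and 3 Tex15-/- libraries. These testes were not sorted, so fewer germ cells and less piRNA per germ cell cannot be told apart. Long RNA of 1 testis per library was measured in 3 Tex15-/- males at P20, for which a control was not analysed here.

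An intact endogenous retrovirus has a long terminal repeat (LTR) at each end, which carries the promoter, and an internal part between them. MusD elements keep reading frames for the viral proteins, whereas ETn elements have replaced that part with other sequence and use proteins made elsewhere. In the foetal testis, germ cells erase and then rebuild their DNA methylation. During that time piRNAs, which are bound by the PIWI proteins MILI and MIWI2, recognise TE transcripts and direct new methylation to TE promoters. MILI cuts TE transcripts and so makes new piRNAs on the other strand, a cycle known as ping-pong. It leaves U at position 1 of one piRNA, A at position 10 of its partner, and an overlap of 10 nt between their 5′ ends. Tex15 encodes a large germ cell protein.

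The piRNA-sized reads are shown first by their sequences. The sequences were those with the highest mean share of ETn reads over the 6 small RNA libraries, each library weighted equally. Of the first 100, 93 were left out because 1 or more of their perfect genomic matches lie on a chromosome whose sequences are not printed here, so the sequences below are not the most abundant ones but hold ranks 21 to 137. Leading sequences 1 to 4 are written 5′ to 3′ as DNA, with positions 1 and 10 in capitals.

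leading sequence 1, named ETnERV3-int or IAPLTR3-int: TaagttgttTatagtccactggggcgtg
leading sequence 2, MMETn-int: TctgtgttcAtctgatgaattaatctatc
leading sequence 3, ETnERV-int or MMETn-int: TaaaaaataTtctccggctctacctcg
leading sequence 4, MMETn-int: TaaattagaActggatctggacccttcc

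All of them begin with T (U in RNA), and 2 of the 4 have A at position 10. Leading sequence 3 shows how one piRNA can stand for many copies, as it has 52 perfect matches in the GRCm38 genome, while leading sequence 4 has 3. The names also show that the annotation is not one to one. The remaining 6 sequences under this rule follow, with the same positions in capitals.

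leading sequence 5, ETnERV-int or MMETn-int: TaaagtcatGgatcaggcggtaggccgta
leading sequence 6, ETnERV-int or MMETn-int: TaagactccGacataagatcacaaagg
leading sequence 7, ETnERV-int or MMETn-int: TctcacaggAaactcagaaacggtcaagc
leading sequence 8, ETnERV-int: TgctcaataTctctgtctgaattctagg
leading sequence 9, MMETn-int: TgtgtgtctTaagactctgccccacagc
leading sequence 10, ETnERV-int or MMETn-int: TgactgaacGatgtgaaaatagcacta

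These 10 did not move one way, as the mean was higher in Tex15-/- for 5 and lower for 5, with ratios from 0.666 (leading sequence 9) to 2.66 (leading sequence 3). Leading sequence 7, antisense to the internal part of the elements, had 11.9, 10.4 and 9.14 reads per 1000000 TE-annotated reads of 25 to 30 nt (TE RPM) in the controls, and 24.4, 19.5 and 20.1 in the Tex15-/- libraries, from 39 to 241 reads per library. Leading sequence 3, which is sense, had 17.3, 10.4 and 5.60 TE RPM in the controls against 23.4, 50.1 and 15.0. Leading sequence 1 had 46.7, 36.6 and 35.8 against 27.1, 43.6 and 40.7, so the groups overlapped. Leading sequence 9 had 16.4, 12.6 and 14.5 against 13.3, 8.02 and 7.67, with overlapping groups too. Single sequences rest on few reads and were not tested. The overlap of 10 nt can be seen on leading sequence 4 and the most read sequence on the other strand whose 5′ end lies 10 nt inside it. The shared 10 nt are in capitals in both.

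leading sequence 4, antisense: TAAATTAGAActggatctggacccttcc
its partner, sense: TTCTAATTTAgggtaggggctcagtt

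The partner was rare, with 0, 3 and 1 reads in the controls and 0, 3 and 1 reads in the Tex15-/- libraries. Under this rule 3 of the 10 leading sequences had a partner that could be reported, and each of these had at most 7 reads in a library.

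Only the gonocyte libraries could be checked against their labels with the targeted gene. Tex15 itself was at 1491 to 1647 counts per 1000000 (CPM) in the control gonocytes and 463, 229 and 247 CPM in those labelled Tex15-/-. The log2 fold change of Tex15 was -2.35 (SE 0.227, adjusted p = 0.0108 in the quasi-likelihood test of edgeR, with p-values adjusted by Benjamini-Hochberg over all features here and below). Germ cell markers were present in all 6 gonocyte libraries, with a summed level of 8 markers of 1907 to 2027 CPM in the controls and 1842 to 1976 CPM in Tex15-/-. Most of this sum came from Ddx4 and Piwil2 (control means of 716 and 711 CPM). Of the 7 tested, Dazl, Sycp3 and Dppa3 were lower in Tex15-/- at an unadjusted p under 0.05 in edgeR, and 0 were higher. Groups did not overlap for Dazl and Sycp3. At that level 1497 of 16311 genes passed in either direction, and no germ cell marker was called. Markers of somatic cells were also there, and 2 of the Tex15-/- libraries stood apart. The sum of 7 interstitial and mesenchymal markers was 62.5 to 76.6 CPM in the controls, just under that range in Tex15-/- library 1, 1787 CPM in library 2 and 425 CPM in library 3. The 6 foetal Leydig cell markers followed, with 18.6 to 60.8 CPM in the controls and 36.4, 581 and 176 CPM in Tex15-/-. Sertoli markers summed to 7.29 to 11.1 CPM in the controls and 7.72, 66.3 and 51.0 CPM in Tex15-/-. Endothelial markers summed to 40.5 to 48.5 CPM in the controls and 32.7, 183 and 38.9 CPM in Tex15-/-, and macrophage and blood markers to 10.2 to 12.1 CPM and 10.7, 28.4 and 36.3 CPM. No gene of these lists was at 0 in all libraries. The small RNA and P20 libraries have no such check here, and their groups rest on the titles and genotypes of the labels. In the small RNA the run codes carry a T for the controls and a C for Tex15-/-, the reverse of the letters used for the gonocytes. Titles, genotypes and the sample names within the small RNA data match each other and were used. The repeat tables held 662394 to 1277612 reads in gonocytes and 338254 to 397378 at P20, and the small RNA tables held 1995803 to 23244351 TE-annotated reads of 25 to 30 nt, with control library 2 the deepest.

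MMETN, an ETn consensus, was the most read member in gonocytes. As CPM scaled within the repeat table by TMM, a method that sets the bulk of repeats to no change, it was at 3940, 4101 and 4191 CPM in the controls and 5069, 5283 and 7025 CPM in Tex15-/- gonocytes. The groups did not overlap, and its log2 fold change was 0.51 (SE 0.154, edgeR adjusted p = 0.0301), which missed the threshold of 0.01. ETNERV was at 943, 952 and 996 CPM in the controls and 1321, 1716 and 2205 CPM in Tex15-/-. Every Tex15-/- library was above every control, and ETNERV rose by a log2 fold change of 0.86 (SE 0.179, edgeR adjusted p = 0.00114). It was the only member called, 1 of 5, where 23 of 301 repeats tested were called in either direction (7.64%), 21 higher (6.98%) and 2 lower (0.664%) in Tex15-/-. At an adjusted p under 0.05, ETNERV and MMETN passed, as did 9.63% of repeats in that direction. Groups did not overlap in 2 of the 5 members and in 23.9% of all repeats. The call of ETNERV was lost without control library 2, control library 3 or Tex15-/- library 3 (edgeR adjusted p = 0.0531, 0.0415 and 0.0196), where 2.6%, 3.23% and 4.11% of all repeats were called, and without Tex15-/- library 1 MMETN was called too (edgeR adjusted p = 0.00296), where 16.8% of repeats were called. MMETN no longer passed 0.05 in edgeR without control library 1, 2 or 3 or Tex15-/- library 3 (adjusted p = 0.137, 0.247, 0.218 and 0.250), nor without a filter on low counts (0.0569), with at least 10 counts in every library (0.0787) or with the replicate number as a block (0.0556). Over the fits that left out 1 library, the log2 fold change of MMETN ran from 0.32 to 0.62 and that of ETNERV from 0.64 to 1.05. Without TMM factors neither passed 0.05 in edgeR, with log2 fold changes of 0.47 for ETNERV (adjusted p = 0.0607) and 0.12 for MMETN (adjusted p = 0.530), where the median of all repeats was -0.39 and 5.32% of them were called at 0.01.

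The remaining members did not pass the test. RLTRETN_MM, the consensus of the LTR, was at 978, 1006 and 972 CPM in the controls and 906, 1108 and 1148 CPM in Tex15-/- (log2 fold change 0.10, edgeR adjusted p = 0.796). ETnERV2 was at 636, 519 and 601 CPM against 621, 698 and 735 CPM (log2 fold change 0.23, edgeR adjusted p = 0.463). ETnERV3 was at 456, 413 and 394 CPM against 356, 522 and 542 CPM (log2 fold change 0.16, edgeR adjusted p = 0.644). In each of these 3, at least 1 Tex15-/- library lay inside the range of the controls or below it. Over the fits that left out 1 library, log2 fold changes ran from 0.00925 to 0.21 for RLTRETN_MM, 0.14 to 0.32 for ETnERV2 and 0.03 to 0.36 for ETnERV3. The median log2 fold change of the 5 members was that of ETnERV2, 0.23, beside -0.02 over all 301 repeats.

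Another scaling moved these values, and the directions of the 3 lower members with them. Scaled by the gene counts of the same libraries, the median log2 fold change of all repeats was -0.30. On that scale ETNERV was at 183, 215 and 210 CPM in the controls and 318, 169 and 377 CPM in Tex15-/-, a log2 fold change of 0.51 (edgeR adjusted p = 0.835). MMETN was at 765, 925 and 884 CPM against 1221, 520 and 1202 CPM (log2 fold change 0.19). Tex15-/- library 2 was the low one for every member, and it was also the library with the highest levels of interstitial and Leydig markers and with 116 repeat reads per 1000 gene reads, against 171 to 199 in the controls and 196 or more in the other Tex15-/- libraries. On this scale none of the 5 members passed an adjusted p under 0.01 in edgeR or an unadjusted p under 0.05, and 1 of 304 repeats was called (0.329%). Groups overlapped in all 5 members and did not in 8.55% of repeats, and RLTRETN_MM, ETnERV2 and ETnERV3 changed sign to -0.25, -0.09 and -0.20. In Tex15-/- library 1 alone, which had somatic marker levels like the controls, and with scaling within the repeat table again, ETNERV had a log2 fold change of 0.40 against the 3 controls (edgeR adjusted p = 0.00752, with the spread taken from the controls and the lone library assumed to vary like them), an alternative added after the data were seen in which 8.59% of repeats were called. MMETN had one of 0.26 there (edgeR adjusted p = 0.0536). With gene counts the same library gave 0.65 for ETNERV (edgeR adjusted p = 0.0635) and 0.51 for MMETN (edgeR adjusted p = 0.133), neither called, where 4.27% of repeats were. A comparison that rests on 1 Tex15-/- library has no replicate in that group. The assumption that it varies like the controls was not met by pairs of libraries. Chi-square per degree of freedom, higher where the repeat counts of a pair lie further apart, was 11.3 to 11.7 between controls. Between Tex15-/- libraries it was 70.4 to 100. The p-values and calls of these comparisons thus rest on too small a spread, and only their log2 fold changes can be read. The part of the somatic cells in the results that use all libraries was not tested.

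**Figure D1:**
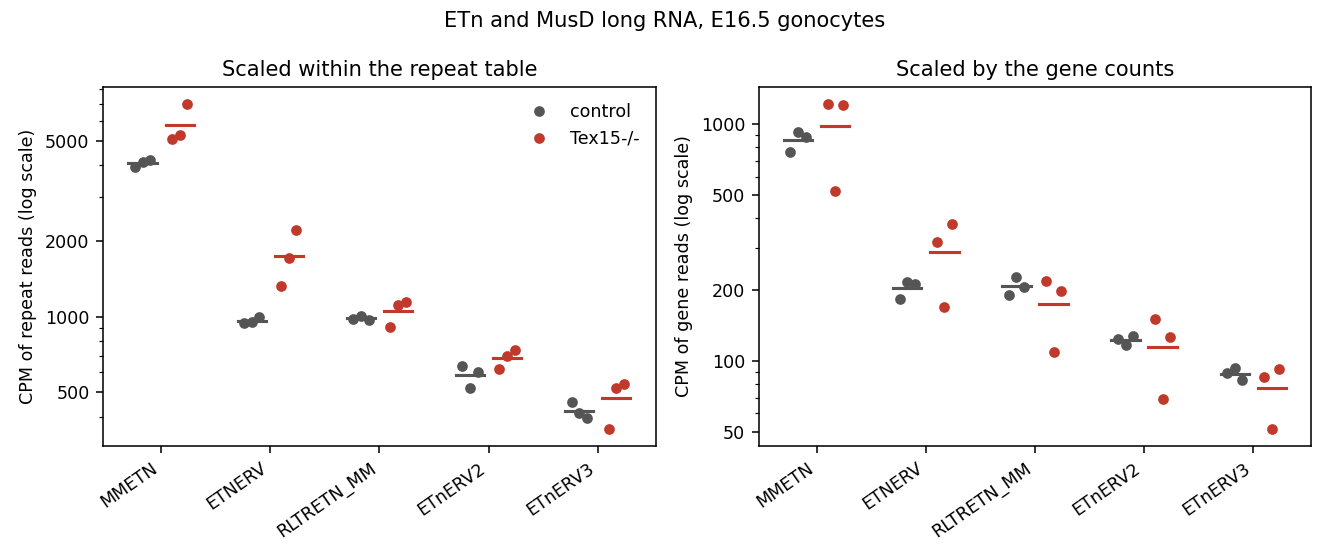
Level of the 5 ETn and MusD consensus sequences in each gonocyte library (points) with the group mean (bar), in CPM on log axes, scaled within the repeat table on the left and by the gene counts on the right. On the left the Tex15-/- points of MMETN and ETNERV lie above all control points, and on the right the lowest Tex15-/- point of both is library 2.

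Without TMM scaling, the members together were a small share of the reads on repeats. They made up 0.796%, 0.817% and 0.794% of the repeat-mapped reads in the controls (mean 0.803% ± 0.0126, SD, n = 3) and 0.788%, 0.766% and 1.00% in Tex15-/- gonocytes (mean 0.852% ± 0.131, SD, n = 3). The ranges overlapped, and the ratio of the means was 1.06. Within this share the make-up shifted. ETNERV was 13.7% ± 0.198 of ETn reads in the controls and 17.8% ± 1.58 in Tex15-/- (SD, n = 3 per group), whereas RLTRETN_MM was 14.1%, 14.4% and 13.6% against 10.9%, 11.9% and 9.85%. Neither pair of groups overlapped. As a share of repeat reads, ETNERV was higher in every Tex15-/- library (ratio of means 1.38), as were 5.32% of repeats, and RLTRETN_MM lower in every one, as were 45.2%. MMETN held between 56.6% and 61.3% of ETn reads in all 6 libraries.

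The members were set against IAP, another family of endogenous retroviruses with active copies, and against MMERVK10C and the LINE-1 consensus L1MdTf_I. IAPEZI went from a mean of 22114 ± 2111 CPM to 66243 ± 14563 CPM (SD, n = 3 per group), a log2 fold change of 1.58 (edgeR adjusted p = 1.2e-08). MMERVK10C had a log2 fold change of 0.72 (edgeR adjusted p = 0.00229) and L1MdTf_I one of 0.86 (edgeR adjusted p = 2.73e-05). The log2 ratio of MMETN to IAPEZI within a library, which needs no scaling, was -2.49, -2.29 and -2.53 in the controls and -3.62, -3.35 and -3.55 in Tex15-/- gonocytes. MMETN was lower against IAPEZI in every Tex15-/- library, and the means differed by -1.07. The exact permutation test gave p = 0.1 (two-sided, 0.1 after Benjamini-Hochberg adjustment over long RNA and piRNA), the smallest p that 3 against 3 libraries can give. Against MMERVK10C the ratio differed by -0.19 and the groups overlapped.

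The 5 names whose levels followed MMETN most closely over the 6 gonocyte libraries were, by Pearson's r of log2(CPM + 1) and as a description, IAPLTR1a_MM (r = 0.995), ERVB7_1-I_MM (0.990), IAPLTR4_I (0.985), MMERVK10C (0.980) and ETNERV (0.976). The points share their libraries and scaling.

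At P20 the members were listed in all 3 Tex15-/- testes at low counts. MMETN had 368, 281 and 341 reads, ETnERV2 120, 100 and 147, ETnERV3 112, 90 and 137, ETNERV 90, 103 and 106, and RLTRETN_MM 59, 64 and 66. Together they were 0.206%, 0.189% and 0.201% of the repeat-mapped reads (mean 0.198% ± 0.00868, SD, n = 3). In Tex15-/- gonocytes ETNERV held 0.152% ± 0.0334 and MMETN 0.507% ± 0.0877 of repeat reads, and at P20 0.0273% ± 0.00292 and 0.0900% ± 0.00964 (SD, n = 3 each). IAPEZI was 5.82% ± 1.33 in Tex15-/- gonocytes and 8.03% ± 0.549 at P20. The libraries differ in age, cell type and kit, so these shares stand side by side and were not compared by a test.

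Of 18 genes listed for their part in silencing endogenous retroviruses (among them the DNA methyltransferases, Trim28 and Setdb1 of the KRAB zinc finger pathway, and Piwil2, Piwil4, Mael and Tdrd9 of the piRNA pathway), none was called in gonocytes by edgeR at an adjusted p under 0.01, beside 0 of 16311 genes (0%). Tex15 itself was not called either (edgeR adjusted p = 0.0108). At an unadjusted p under 0.05, 2 of the 18 were higher and 2 lower, beside 1497 of 16311 genes in either direction. The higher ones were Trim28 (mean 252 against 307 CPM) and Ehmt2 (609 against 718). The lower ones were Hells (190 against 158 CPM) and Atrx (281 against 205). Groups did not overlap in 4 of the 18 (Trim28, Uhrf1, Hells and Atrx) and in 13.2% of all genes. The median log2 fold change of the list was 0.08, beside 0.01 over all genes. Piwil4, which encodes MIWI2, was at 194, 178 and 175 CPM in the controls and 177, 167 and 171 CPM in Tex15-/-.

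In the foetal testes, piRNA-sized reads (25 to 30 nt) with an ETn name were 33337 to 123664 distinct sequences in the controls and 23157 to 61067 in Tex15-/-. They were 2.11%, 1.98% and 1.74% of the TE-annotated reads in the controls and 3.18%, 2.84% and 2.91% in the Tex15-/- libraries. Every Tex15-/- library was above every control, with means of 1.94% ± 0.190 and 2.97% ± 0.180 (SD, n = 3 per group), a ratio of 1.53. As a share of all 18 to 32 nt reads the ranges overlapped, at 0.542%, 0.553% and 0.460% in the controls and 0.938%, 0.507% and 0.763% in Tex15-/-. TE-annotated reads were 17.8% of all 18 to 32 nt reads in Tex15-/- library 2, against 25.7% to 29.5% in the other 5.

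ETnERV-int and MMETn-int were the 2 of 5 names with higher shares. ETnERV-int was 0.909%, 0.846% and 0.732% of TE-annotated reads in the controls and 1.70%, 1.47% and 1.55% in Tex15-/-. MMETn-int was 0.845%, 0.759% and 0.623% in the controls and 1.15%, 1.13% and 1.08% in Tex15-/-. Both were higher in every Tex15-/- library, where 13 of 749 names (1.74%) were. The other members were lower as a share, among them ETnERV2-int and ETnERV3-int, which like the 2 higher names are named for internal parts. RLTRETN_Mm, the LTR, was 0.246%, 0.258% and 0.242% against 0.222%, 0.167% and 0.190%. ETnERV2-int went from 0.0791% ± 0.00271 to 0.0570% ± 0.00847, and ETnERV3-int from 0.0444% ± 0.0133 to 0.0318% ± 0.00695 (SD, n = 3 per group). For ETnERV3-int the highest Tex15-/- library and the lowest control were both at 0.0366%. Of all names, 551 of 749 (73.6%) were lower in every Tex15-/- library on this scale, and IAP names took 15.5% ± 2.23 of TE-annotated reads in the controls and 29.1% ± 3.41 in Tex15-/-.

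Per 18 to 32 nt read, ETnERV-int was still higher in every Tex15-/- library (2212 ± 237 against 3905 ± 1207 reads per 1000000, SD, n = 3 per group), whereas the groups of MMETn-int overlapped. ETnERV2-int was lower in every Tex15-/- library on this base (211 ± 14.5 against 143 ± 53.3), and the groups of RLTRETN_Mm and ETnERV3-int overlapped. How many of all names had groups apart on this base was not counted.

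TMM scaling sets the bulk of names to no change. The median log2 fold change over all names was 0.00 with it and -0.88 without it. With it ETnERV-int was at 6964, 6632 and 4928 CPM in the controls and 23533, 17736 and 22995 CPM in Tex15-/-, a log2 fold change of 1.79 (SE 0.204, edgeR adjusted p = 0.0113). MMETn-int was at 6471, 5954 and 4192 CPM against 15904, 13582 and 16002 CPM, a log2 fold change of 1.45 (SE 0.202, edgeR adjusted p = 0.0175). Neither passed the threshold of 0.01, which 1 of 749 names did (0.134%), although groups did not overlap in both, as in 33% of all names. At an adjusted p under 0.05 both passed, as did 3.2% of names in that direction. Without Tex15-/- library 2, the one with the lowest share of TE-annotated reads, both passed 0.01 in edgeR, as did 3.29% of names. MMETn-int no longer passed 0.05 in edgeR without control library 1, control library 2, Tex15-/- library 1 or Tex15-/- library 3 (adjusted p = 0.0707, 0.0548, 0.0530 and 0.0698), nor did ETnERV-int without control library 1 (0.0547). With the replicate number as a block neither passed 0.05 in edgeR (adjusted p = 0.0690 for ETnERV-int and 0.0940 for MMETn-int). With 21 to 23 nt reads as library size the log2 fold changes were 0.74 and 0.39 (edgeR adjusted p = 0.0740 and 0.282), and with all 18 to 32 nt reads they were 0.82 and 0.47 (edgeR adjusted p = 0.0245 and 0.115). On these bases the median log2 fold change of all names was -1.11 and -1.01, and 47.2% and 50.5% of names were called at 0.01 in either direction, with no member among them. RLTRETN_Mm, ETnERV3-int and ETnERV2-int had log2 fold changes of 0.51, 0.44 and 0.41 with TMM scaling (edgeR adjusted p = 0.170, 0.354 and 0.241), with overlapping groups, and -0.37, -0.48 and -0.47 without. For these 3 names the direction depended on the scaling, while ETnERV-int (0.93 without TMM) and MMETn-int (0.59) were higher under both.

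**Figure D2:**
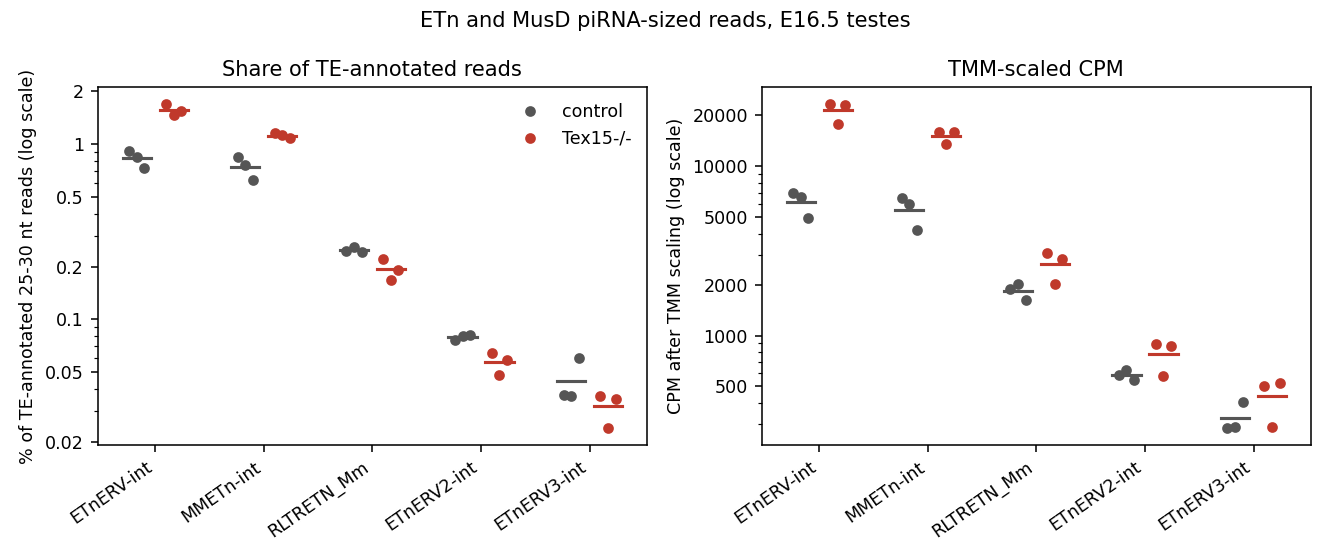
Piwi-interacting RNA-sized reads (25 to 30 nt) of the 5 ETn and MusD names in each library (points) with the group mean (bar), as percent of TE-annotated reads on the left and as TMM-scaled CPM on the right, both on log axes. ETnERV-int and MMETn-int lie above the controls in both panels, whereas the other 3 names lie below them on the left and overlap them on the right.

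Each sequence has 1 TE name in a library, but that name can differ between libraries. Of 5135 ETn sequences found in all 6 libraries, 2302 (44.8%) had more than 1 name. The share was similar over all TE sequences of 25 to 30 nt found in all 6 libraries (53256 of 122968, 43.3%). For ETn sequences the names were most often ETnERV-int and MMETn-int in turn (1446 sequences, 28.2%) or RLTRETN_Mm and ERVB7_1-LTR_MM (321 sequences, 6.25%). With 1 name per sequence over all libraries, an alternative chosen after the data were seen, ETnERV-int had a log2 fold change of 1.79 (edgeR adjusted p = 0.00635) and was called, as were 0.802% of names. Since the names of ETnERV-int and MMETn-int trade places, the sequences were next placed on genomic copies.

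On GRCm38, 88.1% ± 0.371 of the reads of ETn sequences in the controls and 87.9% ± 0.528 in Tex15-/- (SD, n = 3 per group) matched the genome perfectly. Around the places with most matches, 142 pairs of LTRs were found. Of these, 58 met the cut-offs set for long copies and 58 those set for short copies, on length, stop-free stretch and number of matched sequences, and the others met neither set and were left out. The long copies span 7043 to 7710 bp, and their longest stretch free of stop codons has a median of 2598 nt and is 2604 nt (868 codons) in 26 of them. The short copies span 5448 to 5732 bp with no such stretch above 447 nt. The gap between both kinds in length and stretch follows from these cut-offs, and no file says which is MusD and which ETn. The LTRs have medians of 319 and 322 bp, and 10 long and 12 short copies have identical LTRs. Of the long copies 47 lie outside GENCODE genes, and of the short ones 43. For a closer view the copies with the most matched sequences were taken. The long one lies at chr14:8743301-8750794 on the minus strand and is intergenic, with LTRs of 321 bp that are 99.7% identical. The short one lies at chr12:68558075-68563611 on the plus strand and is intergenic, with identical LTRs of 317 bp. The long copy shares its first 653 nt and its last part from nt 5550 with the short copy (98.8% and 97.4% identity), and nt 654 to 5549 are absent from the short copy.

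Reads of sequences with an ETn name in at least 1 library were then grouped by the copies that they match. Their names in the other libraries did not matter. Sequences that never had an ETn name did not enter, even where they match these copies, so a class can be incomplete. This bears on the LTR, where 321 sequences found in all 6 libraries carried RLTRETN_Mm in some and ERVB7_1-LTR_MM in others. The classes refer to the listed long and short copies only. Copies that met neither set, lie on the chromosome left out or lie outside the searched windows were not used. A long-only sequence may thus match an unlisted short copy, and a short-only sequence an unlisted long one. Sequences of the internal part that match only long copies had 3839, 3443 and 2961 TE RPM in the controls and 8623, 7189 and 7685 in Tex15-/-, a ratio of means of 2.29. Sequences in the internal part of both kinds had 6641, 5869 and 4910 against 9518, 10776 and 9480, a ratio of 1.71. Sequences that match only short copies had 1155, 1050 and 873 against 1653, 1562 and 1548, a ratio of 1.55. In all 3 classes every Tex15-/- library was above every control. As a share of TE reads, LTR sequences were lower, with 2245, 2271 and 2149 against 2143, 1705 and 1969 TE RPM, a scale on which 73.6% of names were lower in every Tex15-/- library. Sequences on none of these copies overlapped between the groups (8645 ± 411 against 10207 ± 1500, SD, n = 3 per group). With all 18 to 32 nt reads as the base, long-only internal sequences were still higher in every Tex15-/- library (911 ± 110 against 1948 ± 633 reads per 1000000), and so were internal sequences of both copy types (1704, 1642 and 1300 against 2808, 1923 and 2488), whereas short-only internal sequences overlapped (274 ± 36.8 against 391 ± 105, SD, n = 3 per group). LTR sequences overlapped as well on that base, with 576, 635 and 569 against 632, 304 and 517 reads per 1000000. How many of all names had groups apart on that base was not counted.

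The log2 ratio of long-only to short-only internal reads, which needs no scaling, was 1.73, 1.71 and 1.76 in the controls and 2.38, 2.20 and 2.31 in Tex15-/-. The means differed by 0.56, more than the SD of 0.0242 in the controls and 0.0908 in Tex15-/-. The exact permutation test, added after the data were seen, gave p = 0.1 (two-sided), the smallest possible here. The name ETnERV-int had 41.9% of its reads in long-only and 0.844% in short-only sequences. MMETn-int held 51.0% of its reads in sequences of both kinds and 12.5% in short-only ones. For ETnERV3-int 99.8% and for ETnERV2-int 90.7% of the reads matched none of the listed copies. RLTRETN_Mm had 57.2% of its reads in the LTRs of the listed copies.

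**Figure D3:**
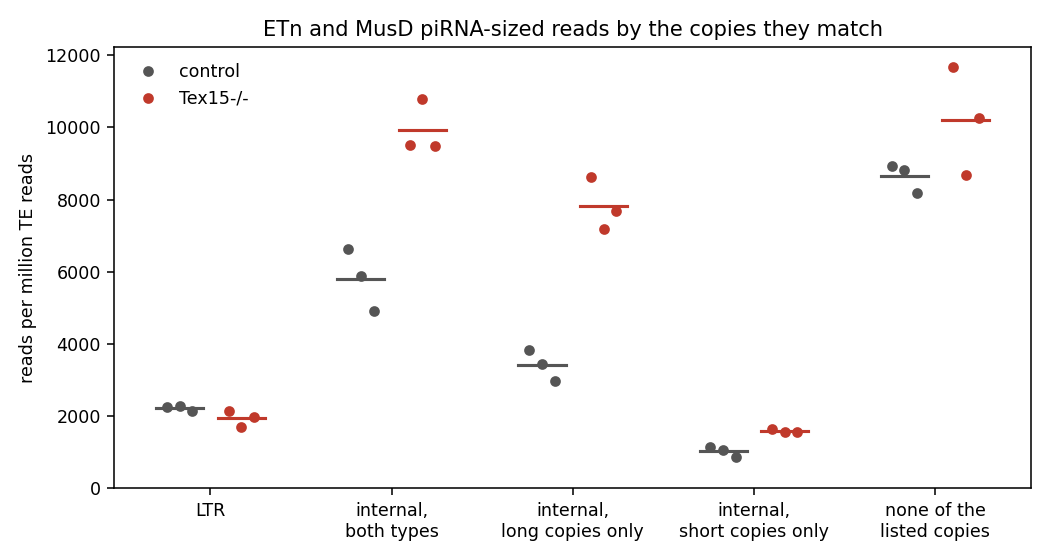
Level in TE RPM (reads per 1000000 TE reads) of ETn and MusD sequences (25 to 30 nt) in each library (points, with the group mean as a bar), by the kind of genomic copy that they match. The Tex15-/- points lie above the control points for the 3 internal classes and below them for the LTR.

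The most read sequences of each strand for the LTR and the short-only part are given here for comparison with the leading sequences above. They were chosen after the values were seen, by mean share within a class with the same chromosome left out, with positions 1 and 10 in capitals.

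LTR, sense: TgctcattcGgtctgccacgcccactgc
LTR, antisense: TggtccagtAgaaaggtgcacgggtgtg
short copies only, sense: AagagtatcAaaatttggaggcgtagac
short copies only, antisense: TctgtgttcAtctgacgaattaatttatc

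The antisense LTR sequence, which matches the genome 56 times, had a mean of 9.06 ± 2.43 TE RPM in the controls and 8.99 ± 2.64 in Tex15-/- (SD, n = 3 per group), and the groups overlapped. The short-only sense sequence had 5.37, 3.53 and 2.24 against 6.06, 5.51 and 5.29. Among the leading sequences, numbers 4 and 6 are long-only and numbers 3, 5, 7 and 10 belong to the internal part of both kinds.

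Along the long copy, the reads of nt 654 to 5549 had a mean of 2317 ± 319 TE RPM in the controls and 5248 ± 417 in Tex15-/- (SD, n = 3 per group), a ratio of 2.26. The antisense reads there had a ratio of 2.63 and the sense reads one of 2.05. The 3′ internal part shared with the short copy had a ratio of 1.98 and the 5′ internal part one of 1.54, both with groups that did not overlap. The 5′ LTR had antisense reads of 582, 597 and 573 TE RPM in the controls and 521, 380 and 497 TE RPM in Tex15-/-. Its direction holds for the share of TE reads only, since all LTR reads overlapped per 18 to 32 nt read and RLTRETN_Mm was at 0.51 (log2) with TMM scaling. Sense LTR reads overlapped between the groups.

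**Figure D4:**
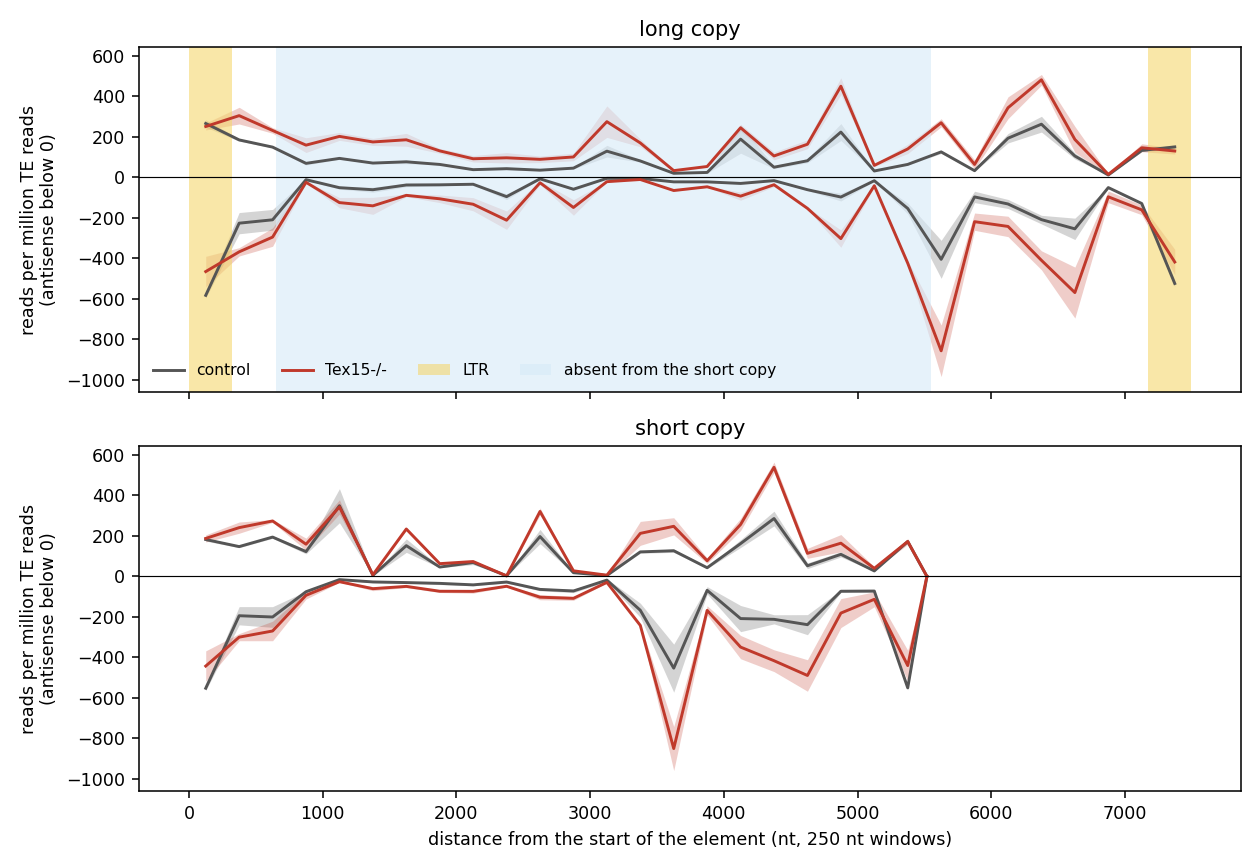
Level in TE RPM along the long and the short copy in windows of 250 nt, sense above and antisense below 0, as the mean of 3 libraries per group with ± 1 SD shaded. On the long copy the Tex15-/- line lies farther from 0 than the control line over most of the internal part, and in the LTR at either end the antisense Tex15-/- line lies closer to 0.

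U stood at position 1 of 68.7%, 68.0% and 68.0% of ETn reads in the controls and 70.0%, 70.3% and 69.1% in Tex15-/-. The groups did not overlap, but the difference of 1.59 percentage points had an exact permutation p = 0.1 (two-sided, 0.2 after Benjamini-Hochberg adjustment over 4 measures). With each distinct sequence counted once the difference was 0.261 percentage points, and the groups overlapped. A stood at position 10 of 45.3% ± 0.333 and 45.7% ± 0.314 of the reads (SD, n = 3 per group, exact permutation p = 0.2). Antisense reads were 54.5% ± 0.691 and 54.1% ± 0.763 of those on the long copy (SD, n = 3 per group, exact permutation p = 0.5). By class of sequence, the antisense share was higher in each Tex15-/- library in internal sequence of both copy types (53.6% and 57.3%) and of long copies only (43.2% and 46.8%). The groups overlapped in short copies only (55.2% and 60.9%) and in the LTR (68.9% and 66.3%). With each distinct sequence on the long copy counted once, the share was 45.2% and 47.4%, without overlap. Reads of 28 to 30 nt were 56.7%, 56.1% and 55.6% of ETn reads in the controls and 53.9%, 53.9% and 53.9% in Tex15-/- (exact permutation p = 0.1, 0.2 after adjustment). In all TE-annotated reads that length share was 50.9% ± 0.232 and 49.7% ± 0.985, with overlapping groups, and U at position 1 was 71.3% ± 1.23 and 72.3% ± 1.39 (SD, n = 3 per group).

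The strands differed on the long copy, as a description. A stood at position 10 of 57.1% ± 0.860 of antisense and 40.7% ± 1.02 of sense reads in the controls, and of 51.6% ± 0.928 and 44.9% ± 2.51 in Tex15-/- (SD, n = 3 per group). The groups did not overlap on either strand of this copy. By class of sequence, the antisense value was lower in each Tex15-/- library than in each control in the LTR (59.1% and 56.0%), in internal sequence of both copy types (54.8% and 51.0%), of long copies only (49.4% and 46.7%) and of short copies only (55.9% and 49.8%). The sense groups overlapped in the LTR (22.3% ± 1.36 and 23.6% ± 0.837), in long copies only (45.0% ± 1.58 and 45.6% ± 1.70) and in short copies only (46.9% ± 0.861 and 49.1% ± 4.61, SD, n = 3 per group). They were apart only in internal sequence of both copy types (39.2% ± 1.90 and 43.8% ± 2.52, SD, n = 3 per group), where the highest control and the lowest Tex15-/- library were both at 40.8% to 40.9%. U stood at position 1 of 66.4% ± 0.243 of antisense reads in the controls and 70.0% ± 0.390 in Tex15-/-, and of 71.2% ± 1.61 and 70.7% ± 2.76 of sense reads (SD, n = 3 per group). On the short copy the values of position 10 were 59.4% ± 1.04 and 54.8% ± 1.05 antisense, and 37.3% ± 1.63 and 41.9% ± 2.10 sense. The same multi-copy sequences enter both copies, so these are not independent.

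Pairs of sense and antisense reads on the long copy overlapped by 10 nt at their 5′ ends in 11.1% ± 0.848 of all pairs with overlaps of 1 to 25 nt in the controls and in 11.5% ± 0.403 in Tex15-/- (SD, n = 3 per group). This was the most frequent overlap in each library, as the next one reached 5.95% to 7.90%. The groups overlapped, and the difference of the means was 0.41 percentage points. Each position counted once gave 10 nt overlaps of 5.23% ± 0.334 and 5.05% ± 0.274 (SD, n = 3 per group), while the next overlap reached 4.14% to 4.23% in the controls and 4.38% to 4.54% in Tex15-/-. On the short copy, by the same count of positions, 10 nt overlaps were 4.88%, 4.49% and 4.79% in the controls and 4.51%, 4.73% and 4.63% in Tex15-/-. The highest other overlap there was 4.70%, 4.37% and 4.44% in the controls and 4.69%, 4.81% and 4.64% in Tex15-/-. With positions counted once, the 10 nt overlap there was thus the most frequent in each control and in no Tex15-/- library. The values lay close together, and the highest other overlaps lay at 21 to 25 nt. In every library the 10 nt overlap stood above those of 9 and 11 nt. The controls had 3.87%, 3.89% and 3.85% at 9 nt and 3.99%, 3.99% and 4.15% at 11 nt. The Tex15-/- libraries had 3.70%, 3.55% and 3.83% at 9 nt and 3.86%, 3.97% and 3.99% at 11 nt. With reads counted, the short copy had 10 nt overlaps in 11.9% ± 0.934 and 11.8% ± 0.610 of pairs (SD, n = 3 per group), and its highest other overlap had means of 7.99% and 7.32%. The group means of read length peaked at 28 nt in both groups, with 18.3% ± 0.157 of 18 to 32 nt ETn reads in the controls and 18.3% ± 0.299 in Tex15-/-. Control library 1 by itself peaked at 29 nt (18.4%, against 18.1% at 28 nt).

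**Figure D5:**
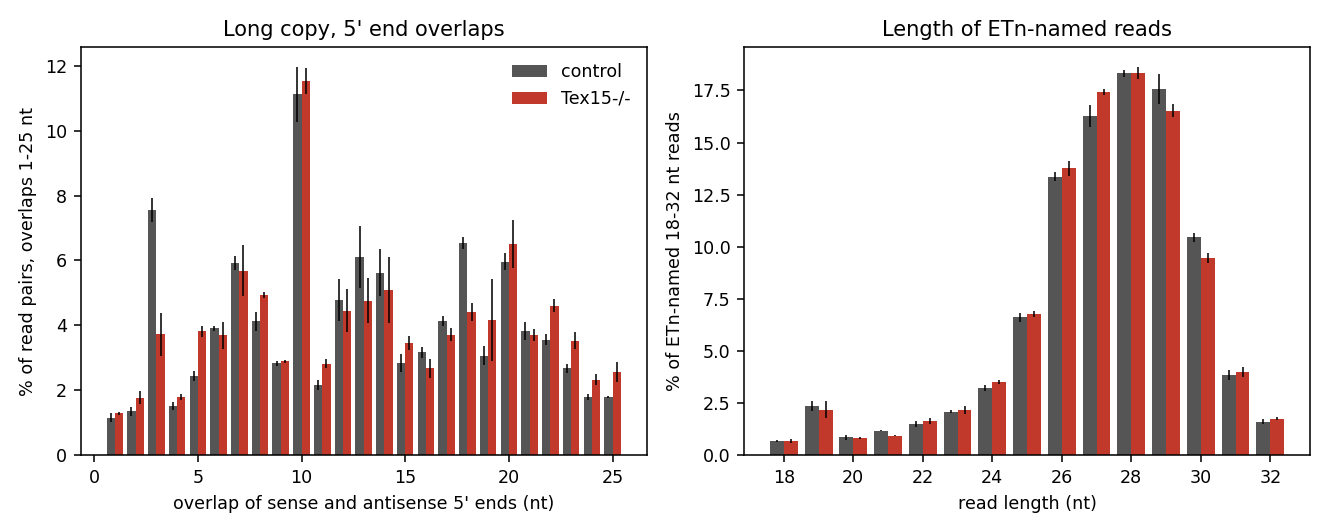
Left, percent of sense and antisense read pairs on the long copy by the overlap of their 5′ ends (1 to 25 nt), and right, percent of ETn-named reads of 18 to 32 nt by length. Bars are the mean of 3 libraries per group with ± 1 SD. The bar at 10 nt is the highest in both groups, and lengths peak at 28 nt.

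The piRNAs were also set against those of IAP. The log2 ratio of ETnERV-int to IAPEz-int was -3.28, -3.01 and -2.98 in the controls and -3.38, -3.93 and -3.59 in Tex15-/-. ETnERV-int was lower against IAPEz-int in every Tex15-/- library, and the means differed by -0.55 (exact permutation p = 0.1, two-sided, 0.1 after adjustment). Against MMERVK10C-int the ratio was -0.56, -0.72 and -0.72 in the controls and -0.46, 0.51 and -0.40 in Tex15-/-, so ETnERV-int was higher against that name in every Tex15-/- library, most of all in library 2. IAPEz-int itself had a log2 fold change of 2.31 with TMM scaling (edgeR adjusted p = 0.0113). The 5 names whose levels followed ETnERV-int most closely over the 6 small RNA libraries, by Pearson's r of log2(CPM + 1) and as a description, were MMETn-int (r = 0.996), RLTR13G (0.994), ERVB7_1-LTR_MM (0.993), Lx7 (0.992) and BGLII_Mus (0.990). The r does not measure the size of a change. Their log2 fold changes with TMM scaling were 1.45, 1.57, 0.94, 0.44 and 0.33 in that order. ETnERV-int and MMETn-int also trade the names of many sequences.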

How the data were processed

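The members and gene lists were chosen with earlier results of these data known. The deposited values are counts without normalisation. Per the authors' methods and processing notes, gonocyte reads were aligned with HISAT2 and counted per gene with HTSeq 0.11.1, long RNA reads were placed on rodent repeat consensus sequences with Bowtie2 2.3.4.3, and small RNA reads were trimmed with cutadapt 1.8.1, collapsed and annotated with Bowtie 1.2.1.1 against RepeatMasker elements (mm10, GRCm38), with mismatches allowed. Near-identical consensus sequences can therefore trade reads. Whether genes were counted by strand is not given in the sources used here. Reads on no consensus (95.8% to 97.8% of the repeat table) and on no gene (61.3% to 67.3%) were left out.

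Counts were compared with edgeR 4.0.16 in R 4.3.3 (filterByExpr at a count of 10 per library and 15 in total, TMM factors within the repeat table or the TE-annotated 25 to 30 nt reads, quasi-likelihood test, Benjamini-Hochberg adjustment over all features, calls at an adjusted p under 0.01). All 5 members passed the filter in either assay. The fits were run on simulated counts with the same spread in both groups and as many changes up as down. That setting does not cover the unequal spread and the mostly 1-sided changes of these data. Single values per library were compared with exact permutation tests in scipy 1.17.1. Sequences with an ETn name in at least 1 library were matched to GRCm38.p6 without mismatch. The 150 windows of 7500 bp with most matched sequences, with flanks, were searched with BLAST+ for LTR pairs (250 to 450 bp, at least 90% identity). Copies were called long at 7000 to 8000 bp with a stretch of at least 1500 nt free of stop codons, and short at 5300 to 5800 bp with none of 600 nt. A sequence matching 2 places in a copy was split equally between them in the profile and overlaps, and was counted once, at its first place, for strand. Copies on chromosome 18 were not used here, and sequences with a perfect match there were counted in every share but not printed. Where nothing says that libraries of a group came from separate animals, p-values measure the spread between these libraries. Named members are all that the rule finds. The comparison names, the 5 most alike names and the 10 leading sequences follow rules on total reads, correlation and mean share. Alternatives are given in the closing section.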

Additional observations from a re-analysis of the deposited data

How the results depend on the processing

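The count of called members in gonocyte RNA was 1 and became 0 without TMM factors (5.32% of repeats called), with gene-count scaling (0.329%), and with an added absolute log2 fold change above 1. How many of all repeats passed with that added cut-off was not counted. The count of members was 2 at an adjusted p under 0.05. Leaving out 1 library gave 0 to 2 calls: 0 without control replicate 2, control replicate 3 or Tex15-/- replicate 3 (ETNERV adjusted p = 0.0531, 0.0415 and 0.0196 in edgeR, with 2.6%, 3.23% and 4.11% of repeats called), and 2 without Tex15-/- replicate 1 (16.8% of repeats called). For piRNA the count was 0 and became 1 without a filter (0.466% of names called), with at least 10 counts in every library (0.631%), without TMM factors (50.6%), with lengths of 26 to 29 nt (0.547%) and with 1 name per sequence (0.802%). It became 2 with distinct sequences counted once (3.98%), with DESeq2 1.42.0 (64 of 749 names, 8.54%, called) and at an adjusted p under 0.05. Leaving out 1 library gave 0 to 2 calls, with 2 without Tex15-/- replicate 2 (3.29% of names called). Directions turned as follows. Without TMM factors ETnERV2, ETnERV3 and RLTRETN_MM were at -0.15, -0.23 and -0.29 in long RNA (log2), and with gene counts at -0.0941, -0.20 and -0.25. In Tex15-/- library 1 alone ETnERV3 was at -0.29 and RLTRETN_MM at -0.17, and with gene counts ETnERV3 at -0.0416. For piRNA ETnERV2-int, ETnERV3-int and RLTRETN_Mm were at -0.47, -0.48 and -0.37 without TMM factors, -0.56, -0.55 and -0.46 with all 18 to 32 nt reads as library size, and -0.64, -0.62 and -0.53 with 21 to 23 nt reads. With each distinct sequence counted once, the difference in A at position 10 was -0.0230 and in antisense share 2.19 percentage points. Without 1 library the antisense difference ran from -0.810 to 0.00165. Against MMERVK10C-int the piRNA ratio of ETnERV-int differed by 0.55. These scalings move the median of all features, and otherwise the cause was not tested.

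With the replicate number as a block, ETNERV had a log2 fold change of 0.83 (edgeR adjusted p = 0.000375) and ETnERV-int an edgeR adjusted p = 0.0690, and the counts of called members were 1 and 0 as without it. With that block 7.97% of all repeats and 0% of all piRNA names were called. Same-numbered libraries did not deviate together in all pairs (r of 0.097, 0.112 and 0.024 in long RNA, -0.230, -0.165 and 0.103 in piRNA), so the numbers were not taken as pairs. The alternatives that keep sequences with 1 TE name, or with ETn names only, could not differ, since each sequence has 1 name in a library. The ratio of the ETn shares of gonocyte repeat reads was 1.06 and turned to 0.968 without Tex15-/- replicate 3. With each distinct sequence counted once, the difference in U at position 1 was 0.261 in place of 1.59 percentage points, and in the 28 to 30 nt share -0.659 in place of -2.25. The 10 nt overlap on the long copy differed by 0.41 percentage points with reads counted and by -0.175 with each position counted once. Control library 2 of the small RNA is the deepest, and rare names such as ETnERV3-int rest on 476 to 8501 reads.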
